A study of Homo sapiens with 36 samples.

Results

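Retained-intron transcripts are transcript models in which stretches of a gene's introns remain in the RNA. The set described here holds 12294 transcripts that GENCODE release 44 types as retained_intron and that had a mean of at least 10 estimated reads (Salmon counts) over the 36 libraries, of 31517 such models and 252199 transcripts in the files. They belong to 5028 genes, of which 2254 have 1 member, 2774 have 2 or more and 625 have 5 or more, up to 21 for DYNC1H1, the heavy chain of cytoplasmic dynein. The threshold fell between a mean of 10.004 reads for the last member inside and 9.996 for the first transcript outside. The members were thus selected on their mean reads over all libraries, without a comparison between treatments.

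The study sequenced RNA of 3 human acute myeloid leukemia cell lines, HL60, MOLM13 and OCIAML3, to learn how they respond to the standard drugs of this disease. Wild-type cells of each line were kept for 24 h with DMSO (the solvent control), cytarabine at 0.1 µM, daunorubicin at 0.02 µM or both drugs at these doses (the combination), with 3 samples labelled as biological replicates per group. Cytarabine resembles a nucleoside and stops DNA polymerases once built in, and daunorubicin is an anthracycline that poisons topoisomerase II. Whether the replicates came from separate cultures or days is not stated, so every p-value reflects the spread among these libraries, which may be technical.

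Introns are removed by the spliceosome, in which U1 and U2 particles recognize the donor site at the start and the acceptor site at the end of an intron, helped by SR proteins and opposed by many hnRNPs. A transcript that keeps an intron often stays in the nucleus (a detained intron) or is destroyed by nonsense-mediated decay once it reaches ribosomes. Genes of splicing regulators and of ribosomal proteins are known for such transcripts, by which cells can lower the yield of protein from a gene without lowering its transcription.

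The label was checked against the models. Of the 12294 members, 5816 hold a whole annotated intron inside an exon, 6147 only start or end inside an intron, and 331 do neither, so fewer than all members show a complete retained intron. The median member had 4 exons and 1672 bases, and 342 members had a single exon. Among introns of the genes' canonical transcripts (the main model of each gene), the 6411 that a member keeps whole had a median of 325 bases (quartiles 146 and 761) and a GC content of 53.9%. The 60650 others had a median of 1310 bases (quartiles 416 and 3305) and 44.5% GC. Kept introns were therefore the shorter and the more GC-rich in these models, and 62.8% of them were under 500 bases against 28.1% of the others. Their splice sites did not differ in this way. A G at intron base 5 was present in 78.1% of kept and 77.7% of other introns, a G at the last exon base in 79.4% and 81.8%, and the median share of pyrimidines in the 18 bases before the acceptor AG was 77.8% in both. These are properties of the annotation and carry no test.

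The splice sites of 6 introns kept by members described below are shown from the GRCh38 genome because they show which boundary the spliceosome would use. Each donor line gives 3 exon and 6 intron bases with the first 2 intron bases in capitals, and each acceptor line gives 20 intron and 3 exon bases with the last 2 intron bases in capitals, 5′ to 3′ on the strand of the gene. Introns are numbered along the canonical transcript. The first is intron 11 of VMP1 (chr17:59838398-59839767, + strand), kept by VMP1-217. The second is intron 11 of DDX5 (chr17:64500774-64502009, − strand), kept by DDX5-215. The third is intron 11 of UFD1 (chr22:19450745-19454748, − strand), kept by UFD1-205. The fourth is intron 2 of ARGLU1 (chr13:106557132-106559431, − strand), kept by ARGLU1-204. The fifth is intron 4 of SF3B1 (chr2:197418589-197420427, − strand), kept by SF3B1-208. The sixth is intron 3 of MCM7 (chr7:100099404-100099588, − strand), kept by MCM7-207.
VMP1 intron 11 donor: cagGTaaga
VMP1 intron 11 acceptor: ttctgcatttatttctacAGgga
DDX5 intron 11 donor: tagGTtagt
DDX5 intron 11 acceptor: cacactgcaacaccttacAGatg
UFD1 intron 11 donor: gagGTgagt
UFD1 intron 11 acceptor: tatcttctcttcaaacctAGgat
ARGLU1 intron 2 donor: gagGTaacg
ARGLU1 intron 2 acceptor: taacatatcctcccctttAGgag
SF3B1 intron 4 donor: atgGTaatt
SF3B1 intron 4 acceptor: gttgctgttcttttctgcAGgag
MCM7 intron 3 donor: gaaGTgagt
MCM7 intron 3 acceptor: tttttgttcttctcctttAGgtg
All 6 begin with GT and end with AG, as did 97.7% of the introns of the 3876 members that keep exactly 1. VMP1-217 also holds MIR21, the gene of a microRNA known from many cancers. Its mature product was taken from RefSeq (GRCh38.p14, chr17:59841273-59841294, + strand), with the seed, bases 2 to 8, in capitals.
hsa-miR-21-5p: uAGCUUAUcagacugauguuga

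The libraries held between 25067734 and 47322144 estimated reads (median 32194478). Among markers of the lines, myeloperoxidase (MPO) had a mean of 1261 TPM (transcript abundance per length, scaled to one sum in every library) in DMSO-treated HL60 and 20.4 in MOLM13, HOXA9 had 106 in MOLM13 and 95.4 in OCIAML3, and erythroid markers stayed at or below 1.52 TPM in every library. The summed level of 8 lymphoid markers moved with treatment, in HL60 from 2.84 to 3.41 TPM with DMSO to 14.9 to 16.4 with cytarabine, 5.74 to 10.9 with daunorubicin and 14.5 to 19.3 with the combination, where CD79A was the largest and MS4A1 was at 0. In MOLM13 it was 2.55 to 3.77, 6.52 to 8.57, 6.47 to 10.2 and 4.61 to 5.82 TPM in the same order. Its part in the results below was not tested. The library labelled OCIAML3 combination replicate 3 stood apart, with a chi-square per transcript of 69.2 and 54.1 against its 2 replicates, which differed from each other by 23.1. OCIAML3 cytarabine replicate 3 stood apart less (18.1 and 17.9, against 14.6), and OCIAML3 results are also given without both. The nuclear noncoding RNAs described below summed to 246 TPM in that combination library, the lowest of its group and within the DMSO range of 242 to 303, and to 360 TPM in that cytarabine library, above it. Both libraries were kept as labelled, whether their labels were exchanged was not tested, and every OCIAML3 value for these treatments rests on the labels. Replicate 1 of the combination stood apart too, in HL60 (55.9 and 52.6, against 27.1) and in MOLM13 (31.5 and 28.2, against 18.4). Without it, the log2 change in library share with the combination was 0.12 in HL60 and 0.46 in MOLM13, and the usage counts are given with the calls. Libraries were unstranded, so reads of a retained intron and of an overlapping or antisense gene cannot be told apart. Salmon divides reads among overlapping models, so the split between 2 models of a gene is an estimate. A member's share of its gene (TPM of the member over the TPM of all transcripts of the gene) and its library share (its reads over all reads) are used below. The change in the share of the gene is called usage and given as a log2 odds ratio, the member's TPM over the rest of the gene's TPM, drug against DMSO, with 0.1 TPM added to each. When a member rises in usage, the share of the other transcripts of the gene must fall.

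Few members made up much of the signal. The 10 largest took 10.4 to 19.2% of all reads in members, the 100 largest 23.9 to 34.4% and the 1000 largest 55.8 to 62.0%. The largest was EEF1A1-207 (chr6:73517519-73521031), from the gene of the elongation factor that brings tRNAs to the ribosome, with a mean of 95990 reads. It keeps intron 4, only 83 bases long. Its share of the gene varied little, between 16.2 and 20.4% in all 36 libraries, while its library share rose in MOLM13 from 0.295, 0.349 and 0.312% with DMSO to 0.461, 0.586 and 0.530% with the combination. Others among the 10 belong to ribosomal protein genes (RPL4-203, RPL14-208, RPL13-213, RPS23-203), to the RNA helicase genes DDX5 (DDX5-215) and DDX17 (DDX17-201), to ARGLU1 (ARGLU1-204) and to OAZ1 (OAZ1-208 and OAZ1-209). The intron of both OAZ1 models is a gap of 1 base in the canonical transcript, the site of the programmed frameshift of antizyme, so they keep no real intron. Such gaps under 30 bases occurred in 4 of the 3876 single-intron members.

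MOLM13 cells carried more of their reads in retained-intron transcripts after every treatment. With DMSO, members took 4.32, 4.34 and 4.48% of MOLM13 reads. They took 4.97, 4.73 and 5.11% with cytarabine, 5.49, 5.64 and 5.80% with daunorubicin, and 5.14, 5.83 and 6.198% with the combination. No treated library overlapped the DMSO libraries, and the means were 1.13, 1.29 and 1.31 times the DMSO mean of 4.38% ± 0.0827 (SD, n = 3). In HL60 the DMSO libraries held 4.41, 4.54 and 4.62% and the combination libraries 5.65, 5.14 and 4.70%, which is 1.14 times as much with no overlap. Cytarabine (5.56, 4.70 and 4.45%) and daunorubicin (5.26, 4.48 and 4.41%) overlapped with DMSO in HL60, and replicate 1 was the highest library of each treated group. In OCIAML3 the share was 4.28, 4.27 and 4.54% with DMSO, 4.21, 4.21 and 4.66% with cytarabine, 4.76, 4.53 and 4.74% with daunorubicin, and 5.11, 4.74 and 4.55% with the combination. There the combination lay just above DMSO, at 1.10 times its mean. An exact two-sided permutation test of 3 against 3 libraries cannot go below p = 0.1, the value it gave for each group without overlap.

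**Figure D1:**
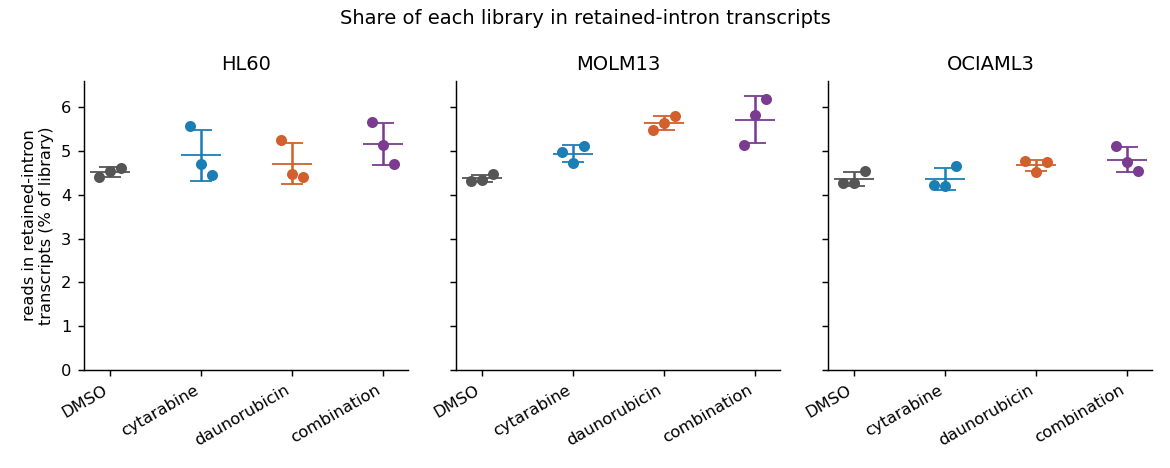
Percent of each library's estimated reads in the 12294 retained-intron transcripts, by cell line and treatment. Points are libraries, bars the mean and SD of 3. All 9 treated MOLM13 libraries lie above the 3 DMSO libraries, and the highest is a combination library at 6.198%.

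Over the 3 lines, an exact two-sided permutation test within lines (8000 arrangements) gave a mean log2 change in library share of 0.24 for the combination (p = 0.00025, the smallest it can give, adjusted p = 0.00075 over the 3 treatments). The same exact permutation test gave 0.17 for daunorubicin (p = 0.00575, adjusted p = 0.00863) and 0.094 for cytarabine (p = 0.0358, adjusted p = 0.0358). As a share of TPM, which divides by transcript length, the exact test gave 0.029 for cytarabine (p = 0.343) and 0.056 for daunorubicin (p = 0.0975), past the threshold for neither, and the combination kept its call (p = 0.0115). Without the 2 OCIAML3 libraries that stand apart, cytarabine lost its call (log2 0.077, exact permutation p = 0.085). It also lost it with the replicate number as a block (exact permutation p = 0.0703) and on leaving out any 1 of 10 among the 18 libraries: replicate 1 of cytarabine in HL60, 1 or 3 in MOLM13 or 3 in OCIAML3, or DMSO replicate 1 or 2 of any line. The other 2 treatments kept theirs on leaving out any 1 library (exact permutation p up to 0.0123 for daunorubicin and 0.001 for the combination). Long members gained more than short ones. In MOLM13 with the combination, the library share of members of 3000 bases or more was 1.39 times DMSO and that of members under 1000 bases 1.11 times, while protein-coding transcripts of 3000 bases or more were at 0.940 times. Members with a whole intron stood at 1.37 times and those that only end inside an intron at 1.18 times.

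Other measures moved with this share in MOLM13. The summed level of nuclear long noncoding RNAs (MALAT1, NEAT1, TUG1, KCNQ1OT1 and MEG3) was 147 to 198 TPM with DMSO and 390 to 577 TPM with the combination, and mitochondrial transcripts took 4.64 to 4.83% and 5.66 to 6.45% of reads. In HL60 the sum of the nuclear RNAs was 113 to 152 TPM with DMSO and 138 to 274 TPM with the combination, in OCIAML3 242 to 303 and 246 to 680 TPM. Their part in the result was not tested. In bulk samples, more cells of a kind and more such RNA per cell cannot be told apart.

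Within genes, MOLM13 members rose as a group in the same way. The median share of a gene in its retained-intron transcripts was 8.70 to 9.31% in MOLM13 DMSO libraries, 10.2 to 10.8% with cytarabine, 11.3 to 12.2% with daunorubicin and 10.9 to 13.0% with the combination. The median usage change of the 10986 members tested was 0.15, 0.32 and 0.34 for cytarabine, daunorubicin and the combination, and 62.4, 70.1 and 70.6% of members changed upward. Over all 51897 transcripts tested in MOLM13 the medians were 0.01, 0.03 and 0.03. In OCIAML3 the medians of the members were −0.01, 0.07 and 0.11, and in HL60 they were −0.02, −0.01 and 0.03. The 3 comparisons of a line share its DMSO libraries.

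**Figure D2:**
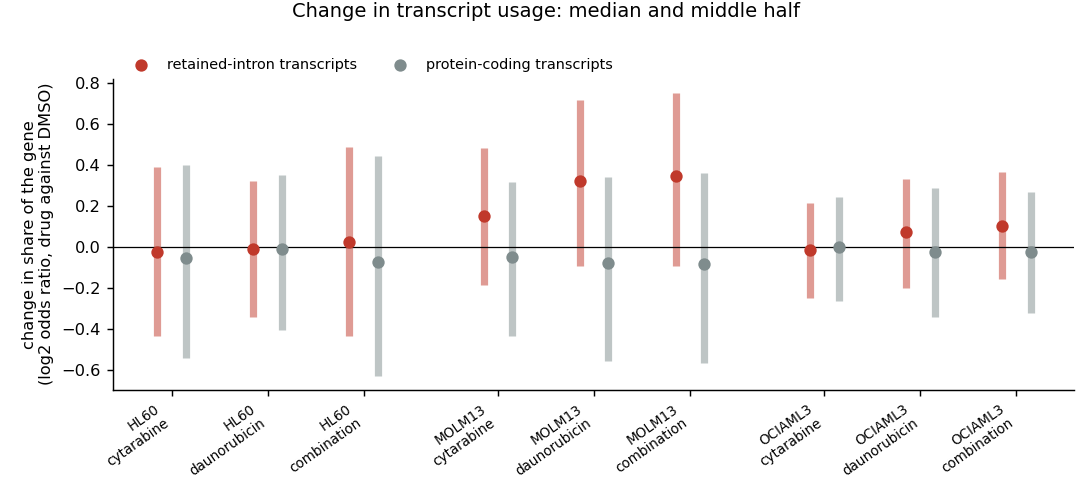
Change in the share of the gene (log2 odds ratio, drug against DMSO) of retained-intron transcripts and of protein-coding transcripts, by line and treatment. Dots are medians over transcripts and bars run from the lower to the upper quartile. The median of retained-intron transcripts lies above 0 in MOLM13, at 0.34 with the combination, and near 0 in HL60.

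A member counted as changed where limma gave an adjusted p (Benjamini-Hochberg) under 0.05 and the log2 change lay beyond 1. In MOLM13 the combination changed the usage of 186 members in 168 genes, 161 higher and 25 lower, against a background of 1.5% of all transcripts called in this comparison, or 0.775% higher and 0.728% lower. Of the members, 1.47% were higher and 0.228% lower. Daunorubicin changed 116, 98 higher and 18 lower against 1.13% of all transcripts called, 0.565% higher and 0.561% lower. Of the 10986 members tested, this total was a smaller share than that of all transcripts, with a larger share higher and a smaller share lower. Cytarabine changed 4, 2 in each direction, against 0.0713% of all, 0.0405% higher and 0.0308% lower. In HL60 the combination changed 170 members in 144 genes, 69 higher and 101 lower, against 2.21% of all transcripts, 1.05% higher and 1.15% lower. Cytarabine changed 56 there, 24 higher and 32 lower, against 0.75% of all, 0.412% higher and 0.338% lower. Daunorubicin changed 2, both higher and both listed at 0 in all DMSO libraries, against 0.101% of all, 0.0638% higher and 0.0367% lower. Each HL60 treatment called a smaller share of the 10798 members tested than of all transcripts, in both directions. Cytarabine in MOLM13 did so too. These limma counts therefore show no excess among members. In OCIAML3 limma called 1 member after cytarabine and 1 after the combination, both lower, and 0 after daunorubicin against 0.0163, 0.00908 and 0.00726% of all transcripts. These 2 calls were the same member, listed at 0 in all cytarabine and combination libraries. It held a mean of 1.18% of its gene in the DMSO libraries that both comparisons share. No size is given, since it rests on the 0.1 TPM added. The higher transcripts were 0.00726, 0.00363 and 0.00182% of all and the lower 0.00908, 0.00545 and 0.00545%. At an unadjusted p under 0.05 these 3 comparisons had 355, 560 and 600 members, and edgeR's diffSpliceDGE, which tests each transcript against its gene on counts, called 21, 19 and 29. Without the 2 libraries that stand apart, limma called 3, 3 and 1.

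The calls depended on the libraries and on the tool. For the combination in MOLM13, leaving out combination replicate 1, 2 or 3 gave 283, 49 or 30 calls. Leaving out DMSO replicate 1, 2 or 3 gave 38, 66 or 76, and leaving out cytarabine replicate 1 or daunorubicin replicate 1, which share the estimate of spread, 122 or 118. For daunorubicin in MOLM13 the count was 30, 45 or 55 without DMSO replicate 1, 2 or 3, 34, 35 or 36 without daunorubicin replicate 1, 2 or 3, and 75 or 74 without cytarabine replicate 1 or 3. For the combination in HL60 it was 101, 58 or 63 without DMSO replicate 1, 2 or 3 and 59, 61 or 111 without combination replicate 1, 2 or 3. For cytarabine in HL60, where all but 2 of the 12 libraries moved the count by over 1.5 times, it was 12 to 48. With diffSpliceDGE the split became 35 higher and 17 lower for MOLM13 with the combination, 26 and 16 with daunorubicin, 72 and 28 for HL60 with the combination, and 37 and 15 with cytarabine. So the balance in HL60 turned from mostly lower with limma to mostly higher with diffSpliceDGE. The median change in MOLM13 with the combination stayed between 0.27 and 0.37 over the other settings.

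**Figure D3:**
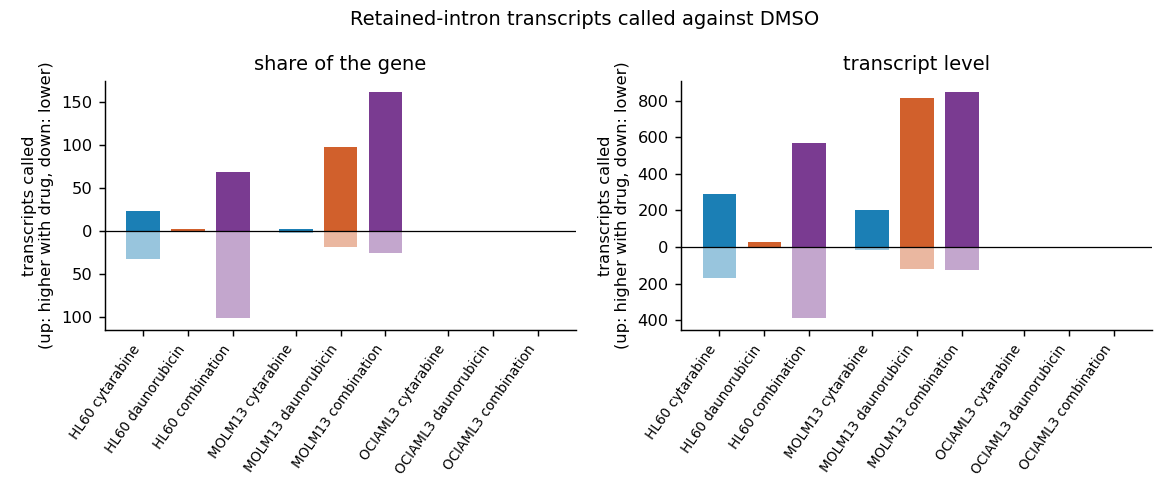
Number of retained-intron transcripts called against DMSO by line and treatment, for the share of the gene (limma) and for the transcript level (edgeR). Bars above 0 count transcripts higher with the drug, paler bars below 0 those lower. MOLM13 combination reaches 161 higher and 25 lower for the share of the gene, and OCIAML3 has at most 1.

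The 161 members called higher in MOLM13 with the combination combined a rise of the member with a fall of the rest of the gene. Their median log2 change in TPM was 0.91 and that of the rest of the gene −0.45. In 120 the member was higher and the rest lower, in 36 both were higher and in 5 both were lower. Of these 161, edgeR's quasi-likelihood test of transcript level called 66 higher. The 101 members called lower in HL60 with the combination had a median of −1.34 against 0.11 for the rest of the gene, and edgeR called 70 of them lower and 8 higher. Between the lines, 9 members were called higher with the combination in both (13.0% of the 69 in HL60 and 5.59% of the 161 in MOLM13) and 9 lower (8.91% of 101 and 36% of 25). The same overlap over all transcripts called was not determined, so these counts show no sharing particular to the members.

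Of the 161, 96 keep a whole intron and 66 exactly 1. The introns of these 66 had a median intron of 542 bases and 40.6% GC, against 324 bases and 52.8% over the tested members of this kind. In HL60 with the combination the medians were 525 bases and 46.2% GC for 13 such members called higher, 521 bases and 53.6% for 40 called lower, and 318 bases and 53.1% over all tested, so there the called introns of both directions were longer than the median. The following values are again for MOLM13 with the combination. In 4 classes of about equal number from low to high GC content, 34, 19, 5 and 8 members were called higher. Together the classes held 3501 tested members, and 0.775% of all transcripts were called higher in this comparison. The median usage changes of all tested members in these classes were 0.44, 0.38, 0.30 and 0.25. In 4 classes from short to long introns the counts were 6, 10, 21 and 29 and the medians 0.21, 0.35, 0.37 and 0.41. The 161 members called higher also had more reads, with a median of 159 per library against 45.3 over all tested. Intron length, GC content and read number were not separated from one another in these counts.

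VMP1-217 was called in most comparisons. VMP1 makes a membrane protein of the endoplasmic reticulum needed to form autophagosomes. The model (chr17:59837931-59842255, + strand) is a single exon of 4325 bases that keeps intron 11, of 1370 bases, and runs on past MIR21 (chr17:59841266-59841337). In HL60 it made up 1.03, 0.565 and 0.572% of VMP1 TPM with DMSO, 11.47, 4.54 and 7.69% with cytarabine, 2.89, 2.45 and 2.29% with daunorubicin, and 10.3, 7.27 and 6.21% with the combination. In MOLM13 it held 3.68, 4.10 and 3.998% with DMSO, 11.1, 9.59 and 12.8% with cytarabine, 16.5, 11.99 and 15.8% with daunorubicin, and 15.7, 12.2 and 16.4% with the combination. All treated libraries of both lines lay above their DMSO libraries. The usage change in HL60 was 3.13 ± 0.36 (SE) for cytarabine (limma adjusted p = 0.00534), 3.21 ± 0.36 for the combination (limma adjusted p = 0.00329) and 1.58 ± 0.36 for daunorubicin (limma adjusted p = 0.234). In MOLM13 it was 1.57 ± 0.20 (limma adjusted p = 0.0251), 2.02 ± 0.20 (limma adjusted p = 0.00367) and 2.02 ± 0.20 (limma adjusted p = 0.00256) for cytarabine, daunorubicin and the combination. The level rose with the combination as well, by 3.92 on the log2 scale in HL60 (edgeR adjusted p = 0.0015) and 2.33 in MOLM13 (edgeR adjusted p = 0.00035). In OCIAML3 the share was 3.32, 2.96 and 2.29% with DMSO, 12.3, 8.30 and 5.37% with daunorubicin and 13.3, 9.21 and 2.58% with the combination, where the lowest library is one of the 2 that stand apart. The cytarabine library that stands apart held 3.88%. Neither passed the test there (limma adjusted p = 0.638 and 0.806). The calls after cytarabine and the combination in HL60 held in all 20 other settings, as did those after daunorubicin and the combination in MOLM13. That after cytarabine in MOLM13 held in 14 of 20. In this and later counts of 20, 1 setting only drops the fold threshold of the same fit, where every call must hold. The reads cover the RNA around MIR21 and say nothing of the mature microRNA, which was not measured. In all, 72 members in 50 genes hold a microRNA gene, and with the MOLM13 combination 3 of 66 tested were higher and 1 lower. Of all transcripts in this comparison, 0.775% were higher and 0.728% lower.

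DDX5-215 was among the most abundant members that changed. DDX5 (p68) is an RNA helicase that takes part in splicing and transcription, and its transcripts are known to detain introns. The model (chr17:64499616-64506289, − strand) keeps intron 11, of 1236 bases, with the microRNA genes MIR3064 and MIR5047 in it. In HL60 its share of the gene was 23.0, 21.1 and 19.6% with DMSO, 43.8, 32.4 and 47.8% with cytarabine, and 42.4, 38.3 and 49.9% with the combination. In MOLM13 it was 18.99, 20.7 and 17.1% with DMSO, 30.7, 33.5 and 30.3% with daunorubicin, and 30.9, 35.1 and 34.2% with the combination. The groups did not overlap. Usage rose by 1.52 ± 0.27 in HL60 (limma adjusted p = 0.02) and 1.10 ± 0.12 in MOLM13 (limma adjusted p = 0.00414) with the combination. Its level changed little in HL60, from a mean TPM of 96.4 to 125 (log2 0.28, edgeR adjusted p = 0.26), while DDX5 as a whole went from 454 to 286 TPM. OCIAML3 went from 22.9, 24.4 and 23.3% with DMSO to 33.9, 30.04 and 30.6% with daunorubicin (limma adjusted p = 0.608). diffSpliceDGE did not call these rises of DDX5-215 in either line (adjusted p = 1). The combination calls held in 15 of 20 other settings in HL60 and 19 of 20 in MOLM13, and the HL60 cytarabine call (1.38 ± 0.27, limma adjusted p = 0.0481) in 7.

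SRSF3-207 (chr6:36599438-36602776, + strand) ends inside an intron of SRSF3, the gene of a small SR protein that regulates its own splicing. Its share rose with the combination from 6.36, 7.41 and 6.78% to 16.6, 14.97 and 12.6% in HL60 (1.23 ± 0.17, limma adjusted p = 0.00758). In MOLM13 it rose from 6.42, 7.17 and 5.89% to 11.7, 13.8 and 14.5% (1.15 ± 0.14, limma adjusted p = 0.00593). The level of the transcript changed by 0.29 in HL60 and 0.04 in MOLM13 on the log2 scale, which did not pass the test (edgeR adjusted p = 0.317 and 0.857), and the gene went from 483 to 282 TPM and from 521 to 269 TPM. The share thus rose while the sum of the SRSF3 transcripts fell.

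3 more members were called higher with the combination in both HL60 and MOLM13 under the filters of the rule. UFD1-205 (chr22:19450621-19479172, − strand), from the gene of an adaptor of the p97 segregase, keeps an intron of 4004 bases. It went from 4.80, 5.18 and 5.24% to 16.2, 16.3 and 12.3% of its gene in HL60 (1.68 ± 0.23, limma adjusted p = 0.00723) and from 5.33, 5.15 and 5.69% to 9.67, 12.8 and 12.8% in MOLM13 (1.20 ± 0.22, limma adjusted p = 0.0266). NABP1-208 (chr2:191678136-191683135, + strand) belongs to a gene of a single-stranded DNA-binding protein of the DNA damage response. It is among the 331 members that neither hold a whole annotated intron nor start or end inside an intron. Its share went from 11.4, 15.5 and 9.26% to 24.3, 28.8 and 27.2% in HL60 (1.36 ± 0.28, limma adjusted p = 0.0325) and from 20.8, 17.4 and 18.1% to 32.5, 29.9 and 37.9% in MOLM13 (1.07 ± 0.20, limma adjusted p = 0.029). Here the gene rose too, from 11.9 to 53.6 TPM and from 10.2 to 38.3 TPM. CD47-204 (chr3:108043298-108054739, − strand), from the gene of a surface signal that inhibits phagocytosis, went from 6.08, 7.29 and 5.69% to 14.002, 14.4 and 10.3% in HL60 (1.11 ± 0.25, limma adjusted p = 0.0458). In MOLM13 it went from 6.77, 6.84 and 8.13% to 12.2, 19.6 and 19.9% (1.37 ± 0.21, limma adjusted p = 0.0147). Of 20 other settings, the HL60 and MOLM13 calls held in 19 and 14 for UFD1-205, 14 and 12 for NABP1-208, and 9 and 16 for CD47-204. In OCIAML3, UFD1-205 was at 5.64, 5.01 and 6.36% with DMSO, 8.12, 7.26 and 6.69% with daunorubicin and 8.06, 8.04 and 5.76% with the combination. NABP1-208 was at 15.5, 12.7 and 19.1%, 25.9, 21.6 and 20.3%, and 22.4, 25.3 and 14.5%. For both, daunorubicin lay above DMSO in every library and the combination overlapped only through replicate 3, the library that stands apart. CD47-204 was at 6.497, 5.78 and 6.45%, 7.25, 6.58 and 5.70%, and 7.71, 6.26 and 5.90%, which overlapped also without that library. None of these passed the test (limma adjusted p from 0.702 to 0.977).

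**Figure D4:**
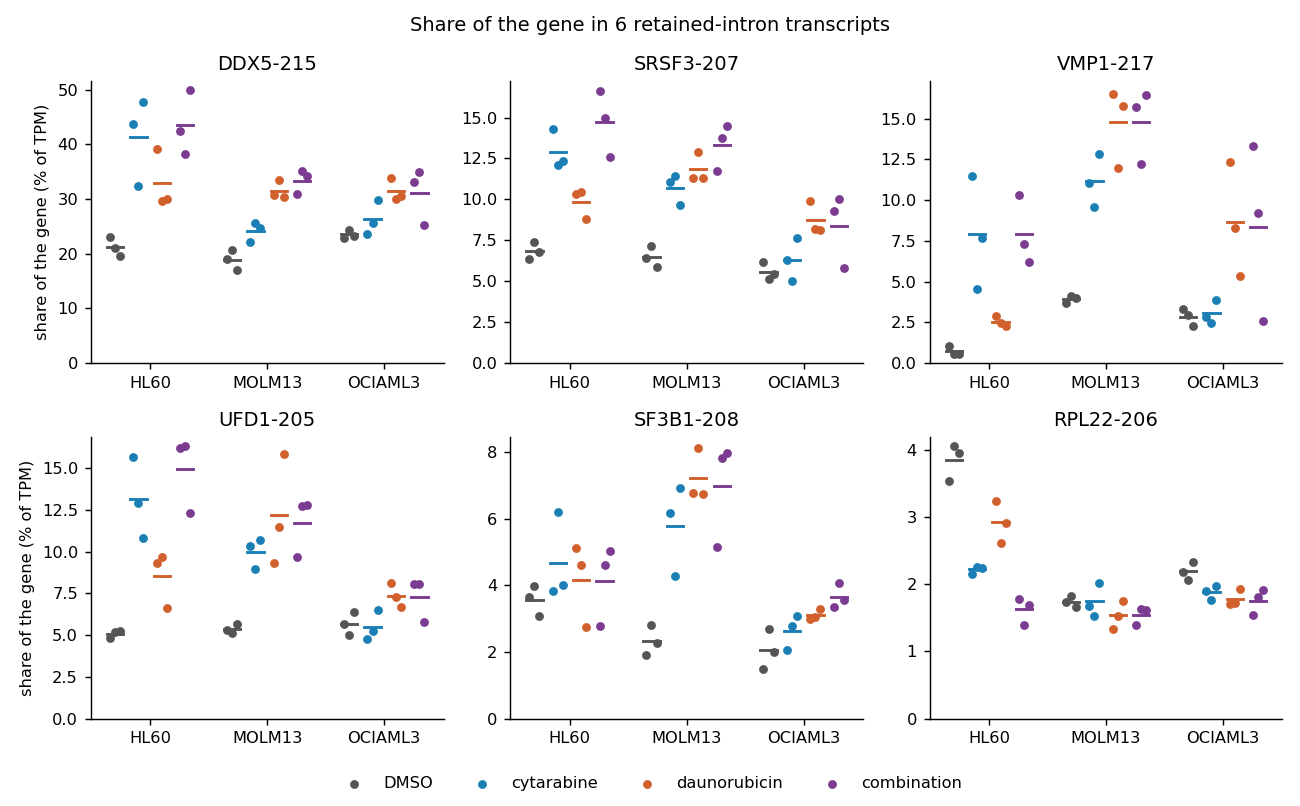
Share of the gene (percent of the gene's TPM) of 6 retained-intron transcripts in every library. Points are libraries and lines the mean of 3, with a separate axis from 0 for each transcript. DDX5-215, SRSF3-207, VMP1-217 and UFD1-205 rise in HL60 and MOLM13, SF3B1-208 in MOLM13, and RPL22-206 falls in HL60. In OCIAML3, where none of these passed the test, SF3B1-208 lies above DMSO with daunorubicin and with the combination, and RPL22-206 lies below DMSO in all 9 treated libraries.

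Genes of the splicing machinery were among those with called members. SF3B1-208 and the other members named in this paragraph were chosen after their values were seen. Of 64 tested members of SR proteins and their kinases, 7 were higher and 0 lower in MOLM13 with the combination (median 0.52). Of 137 members of hnRNPs and other splicing regulators, 8 were higher and 1 lower (median 0.47), and of 62 of the core spliceosome 5 were higher and 0 lower (median 0.51). The median over all members was 0.34, and 0.775% of all transcripts and 1.47% of all members were called higher. Leaving out 1 library gave 2 to 7, 3 to 11 and 0 to 7 higher in the 3 lists, lowest without DMSO replicate 2 for the first and DMSO replicate 1 for the others, and diffSpliceDGE gave 1, 4 and 1. SF3B1-208 (chr2:197389792-197435044) belongs to the gene of the U2 component that is often mutated in myeloid disease. It went from 1.90, 2.82 and 2.29% to 5.16, 7.82 and 7.97% (1.61 ± 0.24, limma adjusted p = 0.0129). In OCIAML3 it was at 1.48, 2.71 and 1.99% with DMSO, 2.99, 3.06 and 3.29% with daunorubicin and 3.36, 4.08 and 3.57% with the combination. HNRNPU-203 (chr1:244840638-244854748), 12852 bases long, rose from 1.24, 1.598 and 1.64% to 4.42, 5.85 and 6.69% of the gene of a nuclear scaffold protein (1.96 ± 0.21, limma adjusted p = 0.00335). LUC7L2-207 (chr7:139375204-139423201), from the gene of a U1-associated factor, was at 4.13, 2.67 and 3.48% with DMSO and at 15.9, 13.7 and 13.1% with daunorubicin (2.20 ± 0.28, limma adjusted p = 0.00739). The called SR list members with the combination in MOLM13 were SRSF3-207, LUC7L2-205, LUC7L2-207, CLK3-226, TRA2A-209, TRA2B-213 and SRSF4-207. Among these, TRA2B-213 neither holds a whole annotated intron nor starts or ends inside an intron. U2AF1-208, U2AF1-209 and U2AF1-211 were called too, with 3 DMSO shares of 2.20 to 2.75% and combination shares of 5.26, 5.27 and 6.89% for the last, but GRCh38 holds a near-identical copy of U2AF1 and their reads are uncertain.

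SNRNP70-203 (chr19:49102411-49108602), from the gene of the U1 70K protein, rose in HL60 with the combination from 13.1, 12.5 and 11.9% to 27.5, 25.8 and 23.0% (1.25 ± 0.19, limma adjusted p = 0.011). It rose in MOLM13 with daunorubicin from 11.6, 11.7 and 12.2% to 22.2, 25.7 and 20.0% (1.11 ± 0.16, limma adjusted p = 0.0134). In HL60 with the combination the SR list had 2 of 65 higher (median 0.20), the hnRNP list 4 higher and 1 lower of 140 (0.15) and the spliceosome list 2 of 60 higher (0.20). Of all transcripts in this comparison, 1.05% were higher and 1.15% lower. In OCIAML3 none of the tested members of these 3 lists was called in any limma comparison, and their medians lay between −0.03 and 0.17. ARGLU1-204 (chr13:106543327-106568137), from a gene of a splicing modulator whose main product keeps an intron, went from 83.4, 81.6 and 82.5% of its gene to 92.1, 91.5 and 94.5% in MOLM13 with the combination (1.44 ± 0.19, limma adjusted p = 0.008). The retained-intron transcript was thus the main product of ARGLU1 before and after treatment.

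**Figure D5:**
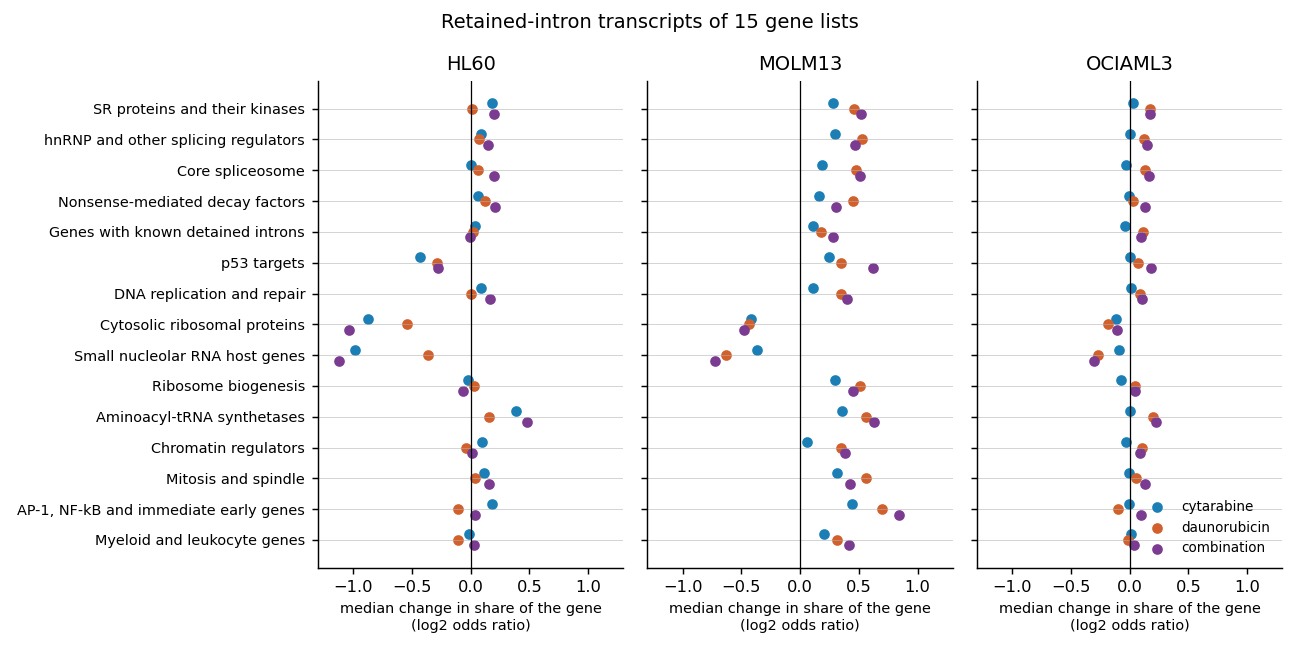
Median change in the share of the gene (log2 odds ratio) over the retained-intron transcripts of 15 gene lists, by line, with a dot per treatment. Lists with fewer than 14 members are not drawn. Ribosomal protein genes and small nucleolar RNA host genes lie below 0 in all 3 lines and for all 3 treatments, down to −1.04 and −1.12 in HL60 with the combination, while the splicing lists lie above 0 in MOLM13.

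Retained-intron transcripts of ribosomal protein genes went the other way. In HL60 with the combination, 43 of 184 tested members were lower and 0 higher in usage, in 26 genes, with a median of −1.04 and 17 members above 0. Of all transcripts, 1.15% were lower in usage in this comparison. Leaving out DMSO replicate 1, 2 or 3 gave 28, 12 or 15 lower, leaving out combination replicate 1, 2 or 3 gave 21, 17 or 28, diffSpliceDGE gave 4 and 1 fit of all 36 libraries 78, each with 0 higher. With cytarabine 12 of 184 were lower (median −0.87) and with daunorubicin 0 (median −0.54), against 0.338 and 0.0367% of all transcripts. At the level of the transcript, edgeR called 86 of 186 lower with the combination (median −1.17), against 3.56% of all transcripts. The genes themselves hardly moved, with a median log2 change in gene TPM of −0.01 over 65 genes, and their protein-coding transcripts had a median level of −0.30 against 0.03 over all transcripts. In MOLM13, 5 of 186 were lower with the combination and 6 with daunorubicin (medians −0.48 and −0.43). Of all transcripts there, 0.728 and 0.561% were lower. The medians in OCIAML3 were −0.11 for cytarabine, −0.18 for daunorubicin and −0.11 for the combination with no call.

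RPL22-206 (chr1:6186575-6199563, − strand) shows the pattern of this list. It and the other members named in this paragraph were chosen after their values were seen. RPL22 encodes a protein of the large ribosomal subunit. Its retained-intron transcript, which holds an intron of 1805 bases, made up 3.54, 4.06 and 3.95% of the gene in HL60 with DMSO and 1.79, 1.399 and 1.69% with the combination, and 2.16, 2.26 and 2.24% with cytarabine. In MOLM13 it was at 1.73, 1.82 and 1.66% with DMSO and at 1.39, 1.63 and 1.62% with the combination. In OCIAML3 it was at 2.17, 2.06 and 2.33% with DMSO and at 1.54, 1.81 and 1.91% with the combination, without a call. The difference between the lines passed the interaction test (1.10 ± 0.21, MOLM13 minus HL60, limma adjusted p = 0.0275), as did that of RPS16-206 (chr19:39433223-39435948) (1.08 ± 0.21, limma adjusted p = 0.0348). RACK1-230 (chr5:181236961-181243947), from the gene of a scaffold on the small subunit, fell in both lines. It went from 1.92, 2.14 and 1.73% to 0.990, 0.920 and 0.885% in HL60 (−1.06 ± 0.16, limma adjusted p = 0.0121) and from 2.25, 1.79 and 2.00% to 0.865, 0.967 and 0.868% in MOLM13 (−1.17 ± 0.14, limma adjusted p = 0.00536). In MOLM13 the lowest adjusted p in the list was that of RPL21-207 (chr13:27251362-27254467), which fell from 1.48, 1.34 and 1.29% to 0.464, 0.459 and 0.427% (−1.61 ± 0.16, limma adjusted p = 0.00217).

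Small nucleolar RNA host genes, whose introns carry the RNAs that guide modification of ribosomal RNA, showed the same direction. In HL60 6 of 39 members were lower with the combination (median −1.12) and 5 with cytarabine (−0.99), against 1.15 and 0.338% of all transcripts. In MOLM13 6 of 40 were lower with the combination (−0.72), against 0.728% of all transcripts. Leaving out 1 library gave 1 to 6 lower in HL60, lowest without DMSO replicate 3 or combination replicate 2, and 0 to 6 in MOLM13, lowest without DMSO replicate 1 or combination replicate 2, and diffSpliceDGE gave 1 and 0. Most were models of GAS5, a host gene that is also a regulatory RNA. GAS5-230 (chr1:173863931-173867991, − strand) went from 2.68, 3.63 and 4.18% to 0.628, 0.581 and 1.11% in HL60 (−2.24 ± 0.35, limma adjusted p = 0.0128) and from 2.64, 2.16 and 2.34% to 1.42, 0.962 and 1.06% in MOLM13 (−1.09 ± 0.23, limma adjusted p = 0.0458). In MOLM13 GAS5 rose from 776 to 1380.4 TPM at the same time. Models of 1 gene share reads and are not separate observations. Among the ribosomal protein members, the 44 that hold a small nucleolar RNA gene had 13 of 42 tested lower in HL60 with the combination (median −1.09), and the 147 that hold none had 30 of 142 (median −1.01).

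Members of aminoacyl-tRNA synthetase genes, the enzymes that charge tRNAs, had few calls. In HL60 with the combination 5 of 87 were higher and 0 lower (median 0.48), and in MOLM13 3 of 77 were higher and 0 lower (median 0.63), where 1.05 and 0.775% of all transcripts were higher. Leaving out DMSO replicate 1 left 1 and 0, and diffSpliceDGE called 1 higher and 1 lower in HL60 and 0 in MOLM13. WARS1-237 (chr14:100361703-100375473), of the tryptophan enzyme, went from 7.58, 4.98 and 5.84% to 13.2, 19.1 and 18.3% in HL60 (1.63 ± 0.25, limma adjusted p = 0.0118), and WARS1 rose from 128 to 216 TPM. LARS1-202 (chr5:146113911-146146556), of the leucine enzyme, went from 1.84, 2.58 and 2.36% to 5.05, 5.69 and 7.97% in MOLM13 (1.47 ± 0.24, limma adjusted p = 0.0183).

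Targets of p53 followed their genes in level. In MOLM13, edgeR called 11, 19 and 22 of 32 members higher in level with cytarabine, daunorubicin and the combination and 0 lower. Of all transcripts there, 1.45, 4.41 and 4.48% were called higher, and 1.81, 7.13 and 7.14% in either direction. Their usage changed in 1 member, TNFRSF10B-204 (chr8:23042904-23069022), and the gene TPM of the list had a median log2 change of 1.31 with the combination. In HL60 4 were higher and 1 lower of 29. Of all transcripts in HL60, 3.81, 0.728 and 5.91% were higher in level with cytarabine, daunorubicin and the combination. Myeloid and leukocyte genes had 10, 22 and 20 of 56 members higher in level in MOLM13 and 1 member higher in usage after daunorubicin (CORO1A-210, chr16:30185932-30189075). MPO-205 (chr17:58278837-58279399), of the myeloperoxidase gene, fell in usage in HL60 from 5.32, 8.39 and 6.52% to 1.74, 2.69 and 1.92% with the combination (−1.72 ± 0.30, limma adjusted p = 0.0198), as MPO itself went from 1261 to 254 TPM.

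Of the remaining lists, in MOLM13 with the combination, DNA replication and repair had 2 of 113 higher (median 0.40), chromatin regulators 3 of 133 (0.38), ribosome biogenesis 2 of 71 (0.45), genes with known detained introns 1 of 47 (0.28), nonsense-mediated decay factors 0 of 30 (0.30), mitosis and spindle 0 of 46 (0.43) and immediate early genes 0 of 11 (0.84), with none lower. Of all transcripts, 0.775% were higher in that comparison. Ribosome biogenesis members fell in level in HL60, 22 of 72 with the combination (median −1.32) and 14 with cytarabine, but not in usage (0 of 71, median −0.07). Of all transcripts in HL60, 3.56 and 1.37% were lower in level with these 2 treatments. The lymphoid list had 1 member, not called in usage, the line marker list only MPO-205, and erythroid markers and nuclear noncoding RNAs none.

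MCM7-207 (chr7:100099319-100100473, − strand) had a large usage change in MOLM13 that varied between libraries. MCM7 is a subunit of the replicative helicase, and the model keeps intron 3, of 185 bases. Its share went from 1.04, 1.45 and 1.26% to 4.01, 21.7 and 18.1% with the combination (3.42 ± 0.66, limma adjusted p = 0.032) and to 9.55, 18.2 and 8.07% with daunorubicin (3.32 ± 0.66, limma adjusted p = 0.0397). The combination libraries spread widely, and the gene fell from 298 to 83.5 TPM. These calls held in 11 and 9 of 20 other settings.

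Among members named for large changes in MOLM13, FGD2-210 (chr6:37013025-37029069), of an activator of the GTPase Cdc42, went from 1.43, 2.49 and 4.24% to 16.4, 14.7 and 16.8% with the combination (2.17 ± 0.32, limma adjusted p = 0.0115), and FGD2 rose from 5.81 to 21.6 TPM. ADORA2B-202 (chr17:15973863-15975737), of an adenosine receptor, and RAB8A-205 (chr19:16111915-16126990), of a vesicle transport GTPase, rose with daunorubicin by 2.12 ± 0.32 and 2.18 ± 0.38 (limma adjusted p = 0.0156 and 0.0249). SPON2-218 (chr4:1171526-1172845) and CMC2-206 (chr16:80975801-80998949) rose with the combination by 2.18 ± 0.40 and 2.06 ± 0.34 (limma adjusted p = 0.0253 and 0.0179). PTPN2-209 (chr18:12785478-12787741), of a phosphatase that restrains JAK-STAT signalling, rose with each treatment, from 6.96, 7.53 and 8.25% to 15.7, 16.2 and 15.7% with cytarabine (1.18 ± 0.17, limma adjusted p = 0.0455).

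Members that fell in MOLM13 included 2 that were the main product of their gene. SHANK1-207 (chr19:50711027-50713948), of a synaptic scaffold gene, went from 70.0, 67.2 and 69.0% with DMSO to 50.003, 36.1 and 30.8% with the combination (−1.79 ± 0.27, limma adjusted p = 0.0129). RASA4-213 (chr7:102582350-102593991), of a Ras GTPase activator, went from 59.5, 62.7 and 54.7% to 36.9, 30.8 and 33.8% with cytarabine, 29.2, 30.1 and 33.5% with daunorubicin and 41.1, 32.3 and 33.8% with the combination. RASA4 has near-identical copies on the same chromosome, so the division of its reads is uncertain. ATG12-209 (chr5:115831514-115837781), of a ubiquitin-like protein of autophagy, went from 43.2, 38.9 and 43.0% to 16.1, 22.9 and 19.4% with the combination (−1.56 ± 0.28, limma adjusted p = 0.0235), and PCGF1-204 (chr2:74505043-74507416) from 19.5, 31.8 and 27.8% to 10.9, 8.07 and 6.92% (−1.86 ± 0.41, limma adjusted p = 0.047).

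In HL60, members with large rises included TBXAS1-212 (chr7:139953435-139963051), of thromboxane synthase, which went from 5.42, 5.89 and 7.04% to 20.8, 18.1 and 20.9% with cytarabine (1.86 ± 0.22, limma adjusted p = 0.00572). SDR39U1-203 (chr14:24439766-24442776) went from 4.60, 9.15 and 7.94% to 21.7, 23.7 and 23.5% (1.97 ± 0.27, limma adjusted p = 0.0128) and SRA1-205 (chr5:140550068-140557456) from 9.82, 6.00 and 4.40% to 18.6, 20.4 and 18.1% (1.75 ± 0.32, limma adjusted p = 0.0395). Transcript ENST00000487182 (chr6:41780772-41789891), of a gene that the annotation names only as ENSG00000124593, rose with cytarabine to 45.7, 28.1 and 29.2% from 0, 8.94 and 3.14% (3.82 ± 0.69, limma adjusted p = 0.0373). It rose in MOLM13 with daunorubicin from 4.30, 12.2 and 12.5% to 39.2, 36.4 and 38.7% (2.59 ± 0.49, limma adjusted p = 0.0344).

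Several HL60 members were listed at 0 in all libraries of a group, for which no fold is given. PHAX-203 (chr5:126608357-126625209), of the export adaptor of spliceosomal RNAs, held 21.1, 19.1 and 24.98% of its gene with DMSO and was listed at 0 in all 3 combination libraries (limma adjusted p = 0.00015). GDE1-202 (chr16:19503101-19505132) held 21.1, 12.3 and 10.6% and HPF1-202 (chr4:169750472-169757904) 13.3, 35.2 and 16.7% with DMSO, both listed at 0 with the combination (limma adjusted p = 0.0447 and 0.0452). CEP41-222 (chr7:130397547-130411208) held 25.1, 12.05 and 24.6% and was listed at 0 with cytarabine (limma adjusted p = 0.0494). In PRKD2, the gene of protein kinase D2, 2 members changed places: PRKD2-209 (chr19:46674346-46697341) went from 28.0, 18.7 and 30.3% to 4.67, 0.652 and 1.03% (limma adjusted p = 0.00465), while PRKD2-217 (chr19:46674319-46689709) went from a listed 0 to 26.2, 11.6 and 13.2% (limma adjusted p = 0.0201). Of the 170 called in HL60 with the combination, 9 were at 0 in all treated and 12 in all DMSO libraries. A listed 0 of an estimated count can be reads assigned to another model of the gene.

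The level of members was tested on counts with edgeR's quasi-likelihood test. In MOLM13 204 were higher and 16 lower with cytarabine, 815 and 122 with daunorubicin, and 845 and 124 with the combination, of 11711 tested. Of all transcripts in MOLM13, 1.45, 4.41 and 4.48% were higher and 0.363, 2.72 and 2.67% lower with these treatments. In HL60, where 5.18, 0.814 and 9.47% of all transcripts were called, 288 members were higher and 170 lower with cytarabine, 27 and 6 with daunorubicin, and 570 and 389 with the combination, of 11480. These HL60 counts come from a fit that leaves out the pairing by replicate number. With the replicate number as a block the daunorubicin total was 82 in place of 33. Of all transcripts in HL60, 3.81, 0.728 and 5.91% were higher and 1.37, 0.086 and 3.56% lower. Those called in either direction were 8.27% of the members in MOLM13 and 8.35% in HL60 with the combination. These are near the backgrounds of 7.14 and 9.47%, so the totals alone are no result about retained introns. By direction, the MOLM13 members called leaned higher more than all transcripts did, with daunorubicin and with the combination. Whether this lean differs from that of all transcripts was not tested. In OCIAML3 edgeR called 0 of 11797 members in each comparison (0.00296, 0.0 and 0.0% of all transcripts). At an unadjusted p under 0.05 there were 286, 945 and 908, and DESeq2 called 33, 22 and 42. Without the 2 libraries that stand apart edgeR called 0, 13 and 159.

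The difference in usage change between MOLM13 and HL60 was tested itself, on 9864 members, with limma. It was called for 2 members with cytarabine, 1 in each direction (0.0183% of all transcripts, 0.00686% higher and 0.0114% lower in MOLM13). CIB1-205 was lower in MOLM13, where it was listed at 0 in all 3 cytarabine libraries, and SULT1A1-204, whose gene has near-identical paralogs, was higher there and reached at most 0.105 TPM with cytarabine in HL60. No size is given for either, since both rest on the 0.1 TPM added. With daunorubicin 1 member was higher in MOLM13, U2AF1-211 (chr21:43097622-43107524) at 1.78 (0.0731% of all, 0.0229% higher and 0.0503% lower). With the combination 23 were called, 19 higher and 4 lower in MOLM13 (0.389% of all, 0.185% higher and 0.203% lower). Whether this balance differs from that of all transcripts was not tested.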

How the data were processed

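RNA libraries (unstranded, paired-end) were quantified by the authors with Salmon 1.8.0 after FastQC 0.11.9 on GRCh38, and the deposited files hold estimated counts and TPM per transcript for each of 36 libraries. The study calls the assay sequencing of total RNA. No source used here states the annotation release, or how messenger RNA was enriched or ribosomal RNA depleted, which bears on how much nuclear, intron-holding RNA is captured. Transcripts were matched by identifier to GENCODE release 44, and 16821 unmatched ones (3.99 to 4.52% of counts) were left out. 121 members matched another version of their identifier. Replicates differed by more than sampling noise in every pair.

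Usage was tested with limma 3.58.1 (trend, robust) on log2 odds of TPM + 0.1 per line, for transcripts and rests of genes with a mean of at least 10 reads in that line. Level was tested on rounded estimated counts with edgeR 4.0.16 (filterByExpr, TMM, quasi-likelihood), the tool of the study (3.38.1). Calls needed a Benjamini-Hochberg adjusted p under 0.05 over all transcripts of the fit and a log2 change beyond 1. Differences between MOLM13 and HL60 were tested as an interaction. Same-numbered HL60 libraries deviated together on the level scale (correlation with DMSO 0.104 to 0.145 for daunorubicin and 0.118 to 0.164 for the combination), so there the numbers pair libraries, a pairing seen in the data and not stated in the labels. Unless a block is named, the HL60 level counts and p-values come from the fit that leaves this pairing out. Library shares were compared by exact permutation. The procedures were tested on simulated data. Alternatives were DESeq2 1.42.0, RLE, diffSpliceDGE, other pseudocounts and filters, 1 fit of all libraries, a replicate block and each library left out; the share of HL60 and MOLM13 alone and its replicate block were chosen after seeing the data.

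Members and gene lists were chosen with earlier results of these data known. Named members were, per comparison, up to 5 per direction with at least 10% of a gene of at least 5 TPM and no overlap of groups, up to 10 called alike in HL60 and MOLM13, up to 4 examples per list, the 10 largest, and up to 3 per direction of the interaction. Others are marked. Some genes within the rule are not described, and a few items are not reported here.

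Python 3.11.15 (pandas 2.3.3, pysam 0.24.0, matplotlib 3.10.9) was used for tables and figures.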

Additional observations from a re-analysis of the deposited data

Results flagged for a closer look

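The usage change differed between MOLM13 and HL60, by a test of the difference itself in limma, in 2 of 9864 members for cytarabine (0.0183% of all transcripts called), in 1 for daunorubicin (0.0731%) and in 23 for the combination (0.389%), of which 19 were higher in MOLM13. Named by the rule, PHAX-203 differed by 5.50 (MOLM13 minus HL60, limma adjusted p = 0.00036), as it was listed at 0 in HL60 with the combination and held a mean of 29.6% of the gene in MOLM13. Its size is set by the 0.1 TPM added and is no fold. RASSF1-206 differed by 2.13 (limma adjusted p = 0.0049), with its mean share going from 9.28 to 3.39% in HL60 and from 10.5 to 14.9% in MOLM13. ITGA4-204 differed by 2.67 (limma adjusted p = 0.0473), with means of 6.56 to 1.565% and 8.11 to 11.8%. VSIG10-212 differed by −2.44 (limma adjusted p = 0.0275), with means of 4.77 to 18.7% and 10.6 to 7.30%. PRKD2-217 differed by −6.04 (limma adjusted p = 0.0398), but its groups in MOLM13 overlapped. It was listed at 0 in all DMSO libraries of HL60 and all combination libraries of MOLM13, so this size too is set by the 0.1 TPM added.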

How the results depend on the processing

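Usage counts are given for cytarabine, daunorubicin and the combination. With a pseudocount of 0.5 TPM they were 152, 1 and 434 in HL60, 2, 267 and 317 in MOLM13, and 0 in OCIAML3 with cytarabine and with the combination, and differences between lines were 4, 3 and 103. With 0.01 TPM, HL60 daunorubicin gave 4 and OCIAML3 cytarabine 2. Filtering on the 36 libraries alone gave 100 for HL60 cytarabine, and a mean of 50 reads gave 1 for HL60 daunorubicin, 179 for MOLM13 daunorubicin and 0 for OCIAML3 cytarabine and combination. One fit of all 36 libraries gave 330, 21 and 689 in HL60, 25, 353 and 471 in MOLM13, and 0 in OCIAML3 with cytarabine. diffSpliceDGE gave 28 for HL60 daunorubicin, 100 for HL60 combination, 31, 42 and 52 in MOLM13, and 21, 29 and 19 in OCIAML3. Without the 2 OCIAML3 libraries usage counts were 3, 1 and 3, level counts 13 for daunorubicin and 159 for the combination, and the log2 change in library share over lines for cytarabine 0.077. Level counts with DESeq2 were 956, 271 and 1562 in HL60, 480 in MOLM13 with cytarabine, and 33, 22 and 42 in OCIAML3. With no low-count filter they were 274 and 14 for HL60 cytarabine and daunorubicin and 138 for MOLM13 cytarabine, and with no fold threshold 351 and 1467 for MOLM13 cytarabine and combination. As a share of TPM the log2 change over lines was 0.029 for cytarabine and 0.056 for daunorubicin, and HL60 daunorubicin reversed to −0.040. OCIAML3 cytarabine, near 0, turned to 0.000312 with all retained-intron models and to 0.00137 without mitochondrial reads. The causes were not tested.

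Between a treatment and DMSO, same-numbered libraries did not deviate together by over 0.1 in every pair for usage, with lowest correlations of 0.049, 0.068 and 0.091 in HL60 for the 3 treatments, so the numbers were not taken to pair samples for usage. Over all pairs of groups the correlations were 0.0438 to 0.424 in HL60 (0.177 to 0.424 between cytarabine and the combination), −0.0276 to 0.0437 in MOLM13 and −0.0400 to 0.0913 in OCIAML3. On the level scale every pair with DMSO was over 0.1 for daunorubicin and the combination in HL60. With the replicate number as a block, usage counts were 1 for HL60 daunorubicin, 264 for HL60 combination, 1, 77 and 119 in MOLM13 and 0 for OCIAML3 combination, differences between lines 3 for daunorubicin and 40 for the combination, level 82 for HL60 daunorubicin, and the cytarabine share was 0.094 with an exact permutation p of 0.0703.

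Leaving out 1 library gave usage counts of 12 to 48, 2 to 10 and 58 to 160 in HL60, 1 to 8, 30 to 144 and 30 to 283 in MOLM13, and 1 to 3, 0 to 4 and 1 to 4 in OCIAML3. The lowest came without cytarabine 1 and DMSO 2 for cytarabine and the combination in HL60, and without cytarabine 3, DMSO 1 and combination 3 in MOLM13. Differences between lines were 1 to 4, 0 to 4 and 8 to 53. Level counts were 172 to 387, 7 to 40 and 514 to 845 in HL60, 93 to 230, 533 to 913 and 511 to 1207 in MOLM13, and 0 to 1, 0 to 3 and 0 to 122 in OCIAML3. The share over lines was 0.062 to 0.12, 0.15 to 0.19 and 0.21 to 0.26. In single lines it was 0.017 to 0.18, −0.026 to 0.10 and 0.12 to 0.25 in HL60, 0.15 to 0.20, 0.35 to 0.39 and 0.32 to 0.46 in MOLM13, and −0.051 to 0.030, 0.085 to 0.13 and 0.091 to 0.18 in OCIAML3.

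Of 231 calls of named members, 34 held with diffSpliceDGE, 203 in 1 fit of all libraries, 198 and 209 with the lower and higher pseudocount, and 191 with the block, and none reversed. With 1 library left out, 1578 of 2764 held. RLE scaling changed no level count by over 1.5 times. Members near the minimum of 10 reads rest on few reads per library, and what size of change their depth allows to detect was not tested.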
